A study of Mus musculus with 444 samples.

Results

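Ankrd1, Synm, Fhod3, Ccn1, Ccn2 and Amotl2 are 6 genes linked to muscle structure and to the response of cells to stretch, and their transcripts were followed here across single mammary epithelial cells from pubertal and adult mice. The 6 genes, of 25141 genes kept, were chosen by their levels in these same cells, namely by stage, by lineage and by the level of the contractile genes Acta2 and Myh11. The differences between stages, lineages and contractile levels given for them are therefore a description. Every one of the 6 was found in the count files through its Entrez gene number, Ccn1 and Ccn2 being the present names of Cyr61 and Ctgf.

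The cells came from female FVB/NJ mice, an inbred strain, and no treatment or culture is given for them. Glands of 6 pubertal mice of 5 weeks and of 4 adult mice of 10 weeks were pooled for each sort, and epithelial cells were taken as the fraction negative for Ter119, CD31 and CD45, which mark red, endothelial and white blood cells. The methods write total epithelium elsewhere as CD24+ cells of this lineage-negative (Lin-) fraction, CD24 being an epithelial surface protein, and do not spell out the gate for these captured cells. The names of the deposited pubertal tables give 4 weeks where the methods give 5. Each cell was captured in a microfluidic chamber, and 221 pubertal and 223 adult cells were deposited. Because the labels tie no cell to an animal, sort or capture run, each stage counted as 1 sample, no test between the stages was possible, and the intervals below cover counting error only.

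The mammary duct has an inner luminal layer and an outer basal or myoepithelial layer, whose cells contract to expel milk and carry smooth muscle proteins. Tension on a cell is read in part by the transcriptional co-activators YAP and TAZ (encoded by Yap1 and Wwtr1), which enter the nucleus and act through TEAD factors that bind DNA. Ankrd1, Ccn1, Ccn2 and Amotl2 are textbook targets of this pathway. Ankrd1 encodes a muscle ankyrin repeat protein that is found at the sarcomere and in the nucleus, Ccn1 and Ccn2 encode secreted matricellular proteins that bind integrins, and Amotl2 encodes a motin that holds YAP in the cytoplasm. Synm encodes synemin, an intermediate filament protein that ties filaments to the dystrophin complex and to focal adhesions. Fhod3 encodes a formin, which assembles actin filaments and is best known in heart muscle.

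The bases just before the start of transcription are shown for the 4 genes whose promoters could be printed, since TEAD, AP-1 and serum response factor are the factors through which stretch is best known to reach these genes. They are the 250 bases upstream of the annotated start in RefSeq for GRCm38.p6, read 5′ to 3′ on the strand of the gene. Capitals mark GGAATG or its reverse complement CATTCC, the core bound by TEAD factors, and TATAAA, a form of the TATA box. For Amotl2 the window lies before the start of the listed transcript, which is inside the span annotated for the gene.

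Ankrd1 (chr19:36119845-36120094, minus strand): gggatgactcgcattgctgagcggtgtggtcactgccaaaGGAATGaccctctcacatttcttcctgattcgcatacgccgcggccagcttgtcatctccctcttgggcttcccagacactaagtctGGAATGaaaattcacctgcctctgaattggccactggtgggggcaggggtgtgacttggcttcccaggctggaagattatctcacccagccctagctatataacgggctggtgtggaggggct

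Ccn1 (chr3:145649986-145650235, minus strand): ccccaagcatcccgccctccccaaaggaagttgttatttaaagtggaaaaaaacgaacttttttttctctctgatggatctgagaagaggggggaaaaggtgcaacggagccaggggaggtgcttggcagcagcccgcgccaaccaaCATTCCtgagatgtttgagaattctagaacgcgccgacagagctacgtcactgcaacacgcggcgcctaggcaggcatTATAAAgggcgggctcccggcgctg

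Amotl2 (chr9:102717554-102717803, plus strand): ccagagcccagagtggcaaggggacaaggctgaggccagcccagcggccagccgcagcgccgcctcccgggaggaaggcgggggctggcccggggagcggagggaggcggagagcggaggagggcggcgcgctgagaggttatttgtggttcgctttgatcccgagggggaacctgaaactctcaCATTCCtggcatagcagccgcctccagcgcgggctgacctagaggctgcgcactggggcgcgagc

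Synm (chr7:67759743-67759992, minus strand): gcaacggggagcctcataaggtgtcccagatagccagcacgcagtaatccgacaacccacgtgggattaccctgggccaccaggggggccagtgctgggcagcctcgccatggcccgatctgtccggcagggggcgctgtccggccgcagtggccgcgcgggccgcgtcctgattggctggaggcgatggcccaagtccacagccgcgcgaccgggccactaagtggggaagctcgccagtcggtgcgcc

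Both strands were searched. The TEAD core was found at 2 places before Ankrd1, with first bases 210 and 123 bases upstream of the start, and at 1 place before Ccn1 and before Amotl2, 103 and 65 bases upstream. It was not found in the window before Synm. Of 32851 promoter windows of the same length, 12.6% held this core, so a match by itself is common. The AP-1 motif TGANTCA (6.75% of windows) and the CArG box of serum response factor (1.47% of windows) were in none of the 4 windows. The exact string TATAAA (12.4% of windows) was in the window before Ccn1 alone. Other forms of the TATA box were not searched for. The letters searched for did not overlap one another in these windows. A match is a description of the sequence and not a bound site. The promoters of Ccn2 and Fhod3 are not shown.

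Read pairs were counted per gene, and 323 of 444 cells, 171 pubertal and 152 adult, had at least 100000 counted read pairs and 1500 genes. The study, with the same minimums, kept more cells of both stages, and the difference was not traced. These retained cells held 101063 to 1355737 read pairs each, with medians of 310677 in puberty and 332098 in the adult. All levels below come from cells thinned at random to 100000 read pairs, so that 1 read pair is 10 CPM (a count scaled to 1e+06 read pairs in all) and cells can be compared at equal depth. Within the adult cells, those with numbers 48 to 188 in their titles (107 retained) differed from the other 45. All 107 held reads of Rn7sk, a small nuclear RNA, against 8 of 45 other adult cells and 35 of 171 pubertal cells, and their median of 2866 genes at equal depth was above the 2210 of the other adult cells. What sets the titles apart is not given in the sources used here, so the adult stage values are also given for both sets of titles.

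Ankrd1 (gene 107765, chromosome 19, 36111965 to 36119844) was, of the 6, the gene most restricted to the adult. In puberty its level ran from 0 to 10 CPM over 171 cells with a median of 0, and the whole stage held 1 read pair, or 0.0585 CPM (95% exact Poisson interval 0.00148 to 0.326). In the adult it ran from 0 to 700 CPM with a median of 0 and a mean of 24.7 CPM (22.2 to 27.3, 152 cells). The ratio of the means was 422 with an exact conditional interval of 75.3 to 16707, wide because it rests on that 1 pubertal read pair. Ankrd1 was detected in 43 adult cells, 28.3% (exact binomial interval 21.3 to 36.2). The pubertal share was 0.585% (0.0148 to 3.22). Both adult title sets showed it, with 26.9 CPM in titles 48 to 188 and 19.3 CPM in the others, although 1 cell at 650 CPM held 74.7% of the read pairs in the second set. The single pubertal read pair lay in a cell that also carried 4 of 6 fibroblast markers and 3 of 7 pericyte markers.

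Synm (gene 233335, chromosome 7, 67730161 to 67759742) followed the same order, with higher levels in single cells. The pubertal range was 0 to 290 CPM with a median of 0 and a mean of 2.40 CPM (1.72 to 3.25), from 3 cells of 171. The adult range was 0 to 4400 CPM with a median of 0 and a mean of 77.7 CPM (73.3 to 82.3), from 41 cells of 152. The ratio of means was 32.4 (23.7 to 45.4). A single adult cell at 4400 CPM held 37.3% of the adult read pairs. In titles 48 to 188 the mean was 51.0 CPM over 35 cells with a read, and in the other titles it was 141 CPM over 6 cells, of which that cell held 69.3%. The groups overlapped, since most cells of either stage had no read.

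Fhod3 (gene 225288, chromosome 18, 24708388 to 25133507) was the most widely detected of the muscle-related genes. Pubertal cells ranged from 0 to 440 CPM with a median of 0 and a mean of 7.60 CPM (6.35 to 9.03), and 18 of 171, 10.5% (6.36 to 16.1), had a read. Adult cells ranged from 0 to 4640 CPM with a median of 10 and a mean of 179 CPM (172 to 186), and 78 of 152, 51.3% (43.1 to 59.5), had a read. The ratio of means was 23.5 (19.7 to 28.3). Fhod3 was high in both adult sets, at 206 CPM in titles 48 to 188 and 114 CPM in the others. The protein-coding gene Tpgs2 and the pseudogene Gm52335 overlap it in the annotation, and since the use of strand in the counting is not stated, reads of the overlapped stretch are uncertain.

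Ccn2 (gene 14219, chromosome 10, 24595442 to 24598683) was higher in the adult by a smaller ratio. It ranged from 0 to 2120 CPM in puberty (median 0, mean 51.3 CPM, 47.9 to 54.8) and from 0 to 3950 CPM in the adult (median 10, mean 153 CPM, 147 to 159). The ratio was 2.98 (2.76 to 3.23). The share of cells with a read differed more than the level, being 12.3% (7.77 to 18.2), or 21 of 171, in puberty. It was 59.2% (51.0 to 67.1), or 90 of 152, in the adult. Many of those adult cells had only 1 or 2 read pairs, and at 100 CPM or more the counts were 10 of 171 and 30 of 152. Titles 48 to 188 averaged 121 CPM and the others 228 CPM, ratios to puberty of 2.37 (2.17 to 2.58) and 4.45 (4.07 to 4.88). The lncRNA gene Gm15270, which was not counted, overlaps Ccn2.

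Ccn1 (gene 16007, chromosome 3, 145646971 to 145649985) did not follow its paralogue. Its pubertal range was 0 to 3090 CPM (median 10, mean 204 CPM, 198 to 211) and its adult range 0 to 5640 CPM (median 20, mean 207 CPM, 200 to 214). The ratio was 1.01 (0.965 to 1.06), and a read was found in 56.7% of pubertal and 59.2% of adult cells. The adult sets lay on either side of puberty, with 132 CPM in titles 48 to 188 and 386 CPM in the others, where 1 cell at 5640 CPM held 32.5% of the read pairs.

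Amotl2 (gene 56332, chromosome 9, 102717091 to 102733418) had 0 to 1440 CPM in puberty (median 0, mean 31.5 CPM, 28.9 to 34.2, 29 cells with a read) and 0 to 4940 CPM in the adult (median 0, mean 71.4 CPM, 67.2 to 75.8, 44 cells with a read). The ratio of 2.27 (2.04 to 2.52) depended on 1 adult cell at 4940 CPM, which carried all 6 fibroblast markers and 2 pericyte markers. The log2 ratio was 1.16 with all cells and 0.73 once the top cell of either stage was left out. In titles 48 to 188, which do not include that cell, the mean was 54.8 CPM and 40 of 107 cells had a read, against 4 of 45 in the other titles.

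**Figure D1:**
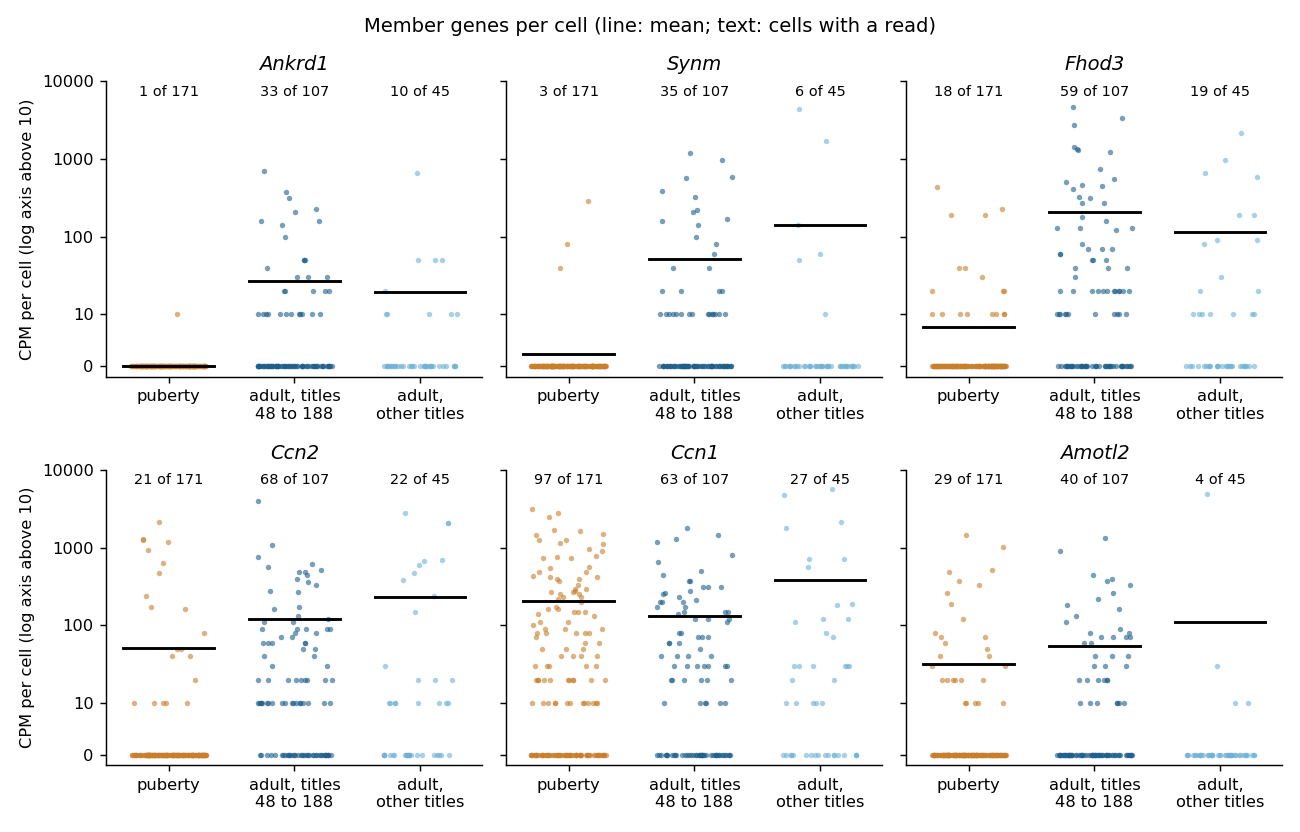
Each point is the level of 1 cell in CPM at equal depth (vertical axis, logarithmic above 10 CPM), for puberty and the 2 sets of adult titles, with the mean as a line and the number of cells with a read above. Ankrd1 is at 0 in all but 1 of 171 pubertal cells and reaches 700 CPM in the adult, while Ccn1 has a read in 56.7% to 60.0% of the cells in every column.

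Across the 6 genes, 5 were at least 2-fold higher in the adult mean, with a median log2 ratio of 2.97 on means with 1 CPM added. Among the 7805 genes that reached 20 CPM in either stage, 14.4% were at least 2-fold higher in the adult and 19.6% at least 2-fold lower, with a median of −0.09. Since this contrast helped choose the 6 genes, nothing is read from the difference. Compared per exon length, as RPKM, the CPM per kilobase of exon, the order in adult cells with Acta2 at 1000 CPM or more was Ccn1 (114), Ccn2 (105), Fhod3 (50.8), Ankrd1 (22.7), Synm (16.6) and Amotl2 (14.7). In pubertal cells with the same Acta2 cut the RPKM order was Ccn1 (103), Ccn2 (55.5), Fhod3 (3.58), Amotl2 (3.03), Synm (0.747) and Ankrd1 (0.0899). Ccn1 and Ccn2 thus led at both stages, and Ankrd1, Synm and Fhod3 lay between 0.0899 and 3.58 RPKM in puberty and between 16.6 and 50.8 RPKM in the adult.

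A stage difference could come with a different mix of luminal and basal cells. The genes were next compared among cells past the same Acta2 cut, which does not fix that mix. Acta2 encodes smooth muscle actin and Myh11 smooth muscle myosin, and 63 pubertal and 89 adult cells had Acta2 at 1000 CPM or more. In these cells Ankrd1 averaged 0.159 CPM in puberty (0.00402 to 0.884) and 40.0 CPM in the adult (36.0 to 44.4). Synm averaged 5.87 CPM (4.14 to 8.10) and 130 CPM (123 to 138). Fhod3 averaged 19.4 CPM (16.1 to 23.1) and 275 CPM (264 to 286).

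Ankrd1, Synm and Fhod3 were thus higher in the adult also among Acta2-high cells, by ratios of 252, 22.2 and 14.2, and the corresponding ratio was 4.87 for Amotl2 (3.84 to 6.23), 1.89 for Ccn2 (1.75 to 2.05) and 1.11 for Ccn1 (1.04 to 1.19). In all, 4 of the 6 were at least 2-fold higher, against 18.5% of the 7613 genes that reached 20 CPM here. The cut equalised neither the contractile genes nor the lineage mix. In these cells pubertal and adult Acta2 averaged 6511 and 9208 CPM, and Myh11 657 and 2011 CPM. The part of that difference in the ratios was not tested. In the cells with Myh11 at 100 CPM or more (38 pubertal, 105 adult), the ratios were 133 for Ankrd1, 11.4 for Synm, 7.46 for Fhod3, 35.0 for Amotl2, 1.49 for Ccn2 and 1.04 for Ccn1.

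Among Acta2-high cells the 2 adult sets were compared over 72 cells of titles 48 to 188 and 17 other adult cells. Ankrd1 averaged 39.0 and 44.1 CPM, but 1 cell at 650 CPM, which carried all 6 fibroblast markers, held 86.7% of the second set, and without it the mean was 6.25 CPM. Fhod3 averaged 273 and 281 CPM, and the second value was 164 CPM without 1 cell at 2150 CPM. Synm (74.7 and 365 CPM), Ccn2 (172 and 595 CPM) and Ccn1 (158 and 538 CPM) were higher in the other titles, and Amotl2 (75.8 and 2.35 CPM) was lower. Without the top cell of the other titles, Synm averaged 113 CPM, Ccn2 456 CPM and Ccn1 279 CPM there. For Amotl2 the direction of the stage difference turned with the set, because the mean of the 17 other adult cells was below the 12.7 CPM of puberty. That pubertal mean came mostly from cells at 370 and 330 CPM, so this turn and the Amotl2 stage ratio of 4.87 rest on few pubertal cells.

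Within a stage, Ankrd1, Synm, Fhod3 and Ccn2 were found mainly in cells with high Acta2. In the adult the means in cells with Acta2 at 1000 CPM or more and in 42 cells under 100 CPM were 40.0 and 1.67 CPM for Ankrd1, a ratio of 24.0 (11.5 to 60.1). They were 130 and 3.81 CPM for Synm, a ratio of 34.2 (21.0 to 60.0). They were 275 and 8.81 CPM for Fhod3, a ratio of 31.2 (22.6 to 44.4), and 253 and 4.29 CPM for Ccn2, a ratio of 58.9 (37.2 to 99.6). The order was the same in both title sets for these 4 genes, with Acta2-low means of 1.25 to 6.88 CPM in 16 cells of titles 48 to 188 and of 0.769 to 10.0 CPM in 26 others.

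These 4 genes made up the 4 of 6 that were at least 2-fold higher with Acta2 in the adult, against 28.9% of all genes at 20 CPM. Ccn1 was level, at 231 and 210 CPM, and Amotl2 was lower in the high cells, at 61.8 and 120 CPM, where the cell at 4940 CPM set the second value. Without cells that carried fibroblast or pericyte markers the adult Amotl2 order turned, to 54.3 and 3.06 CPM. In puberty 3 of the 6 genes, Ccn1, Ccn2 and Amotl2, reached 20 CPM in the 63 Acta2-high or 92 Acta2-low cells, and 1 of them, Ccn2, was at least 2-fold higher in the high cells, against 21.9% of all genes at 20 CPM. Ccn2 averaged 133 against 0.109 CPM (1 read pair), a ratio of 1227 with an interval of 220 to 48508. Below 20 CPM, Fhod3 averaged 19.4 against 0.435 CPM and Synm 5.87 against 0.435 CPM. Pubertal Amotl2 went the other way, with 12.7 CPM in the high and 43.3 CPM in the low cells, a ratio of 0.294 (0.228 to 0.374). Most reads behind the low mean came from cells at 1440 and 1030 CPM, the first with 3 pericyte markers. Most behind the high mean came from cells at 370 and 330 CPM, so the ratio rests on few cells.

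Cells in which a gene reached 100 CPM showed the same arrangement without counting stray reads. All 10 adult cells at 100 CPM or more of Ankrd1 were among the 89 with high Acta2, and none was among the 42 with low Acta2. For Ccn2 the counts were 29 of 89 and 0 of 42, for Fhod3 24 of 89 and 1 of 42, and for Synm 14 of 89 and 1 of 42. In puberty Ccn2 reached 100 CPM in 9 of 63 high and 0 of 92 low cells, and Fhod3 in 4 of 63 and 0 of 92. Single reads were less selective in the adult. Ccn2 reads were found in 35.7% of adult Acta2-low cells (21.6 to 52.0), none above 20 CPM, against 69.7% of Acta2-high cells (59.0 to 79.0) at the same depth of 100000 read pairs. Ankrd1 reads were found in 14.3% and 37.1%, and in puberty the low cells had a Ccn2 read in 1.09%. Whether the single reads in adult Acta2-low cells are free RNA or low expression was not tested, and a share of cells with a read at or below theirs is not read as expression.

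**Figure D2:**
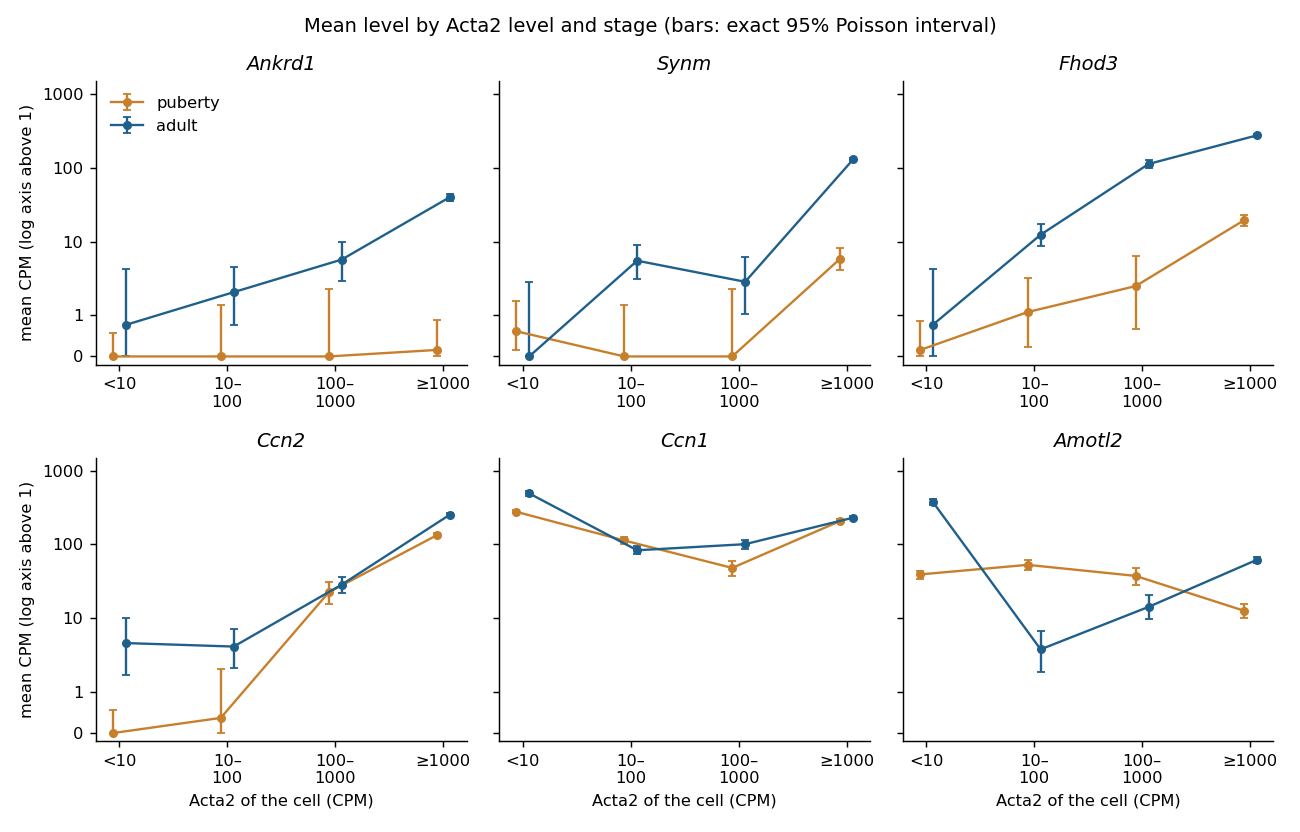
Mean level in CPM (vertical axis, logarithmic above 1 CPM) in 4 classes of cells by their Acta2 level in CPM, for puberty and adult, with exact 95% Poisson intervals. Ankrd1, Synm, Fhod3 and Ccn2 are highest at Acta2 of 1000 CPM or more, Ccn1 is not, and the adult Amotl2 value under 10 CPM of Acta2 rests on 1 cell at 4940 CPM.

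The order over the 4 Acta2 classes was steady for Fhod3. In the adult it averaged 0.769 CPM in 13 cells under 10 CPM of Acta2, 12.4 CPM in 29 cells from 10 to 100, 113 CPM in 21 cells from 100 to 1000 and 275 CPM in 89 cells above. In puberty the Fhod3 means were 0.154, 1.11, 2.50 and 19.4 CPM, and only the step to the last class exceeded the counting intervals of its neighbours. Adult Ankrd1 averaged 0.769, 2.07, 5.71 and 40.0 CPM in the same order, and again only the last step exceeded the intervals. Pubertal Ccn2 averaged 0, 0.370, 22.5 and 133 CPM. Of 65 pubertal cells under 10 CPM of Acta2, 0 had a Ccn2 read, which allows a share of up to 4.62% by the limit of 3 counts.

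Lineage was measured with a score that leaves out contractile genes, the mean log2 level of 8 basal genes such as Krt5, Krt14 and Trp63 less that of 8 luminal genes such as Krt8, Krt18 and Epcam. A score above 1 was called basal-range (74 cells, 30 pubertal and 44 adult) and below −1 luminal-range (217 cells), with 32 cells between and 65 within 1 unit of a cut. These are ranges and not cell types. Of the luminal-range cells, 58 had Acta2 at 1000 CPM or more, so the range does not hold luminal cells alone, and 129 had Acta2 under 100 CPM. In basal-range against luminal-range cells, 4 of 6 genes were at least 2-fold higher, against 19.2% of 7803 genes at 20 CPM.

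In adult basal-range cells the means were 53.4 CPM for Ankrd1, 136 CPM for Synm, 370 CPM for Fhod3 and 320 CPM for Ccn2. In the adult luminal-range cells with Acta2 under 100 CPM (40 cells) they were 1.75, 4.00, 9.00 and 4.50 CPM, with 1 cell of Synm at 140 CPM and 1 of Fhod3 at 190 CPM above the rest. The Ankrd1 order by lineage held in titles 48 to 188 (64.4 CPM in 36 basal-range and 8.52 CPM in 54 luminal-range cells) and turned in the other adult titles (3.75 CPM in 8 and 24.7 CPM in 32 cells). Most of the reads behind 24.7 CPM lay in 1 cell at 650 CPM with all 6 fibroblast markers and Acta2 at 10900 CPM. The turn rests on that cell. Synm by lineage rested on few cells. Its log2 ratio of 1.95 was 0.76 without the highest cell of each range, and in titles 48 to 188 its basal-range and luminal-range means were 42.2 and 40.2 CPM. The 30 pubertal basal-range cells held no read of Ankrd1 or Synm. Against the floor of 3 counts over that group, the adult basal-range level was at least 53.4-fold higher for Ankrd1 and at least 136-fold higher for Synm. A single cell held 73.5% of the adult basal-range reads of Synm, and without it the bound was 37.0-fold. Without the highest Ankrd1 cell that bound was 38.4-fold. The exact conditional lower limits with all cells were below the floor-based values, at 43.1 for Ankrd1 and 110 for Synm. Fhod3 averaged 10.7 CPM in pubertal basal-range cells, a ratio of 34.7 (24.5 to 50.9), and Ccn2 averaged 183 CPM, a ratio of 1.75 (1.59 to 1.94).

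In puberty the reads of Amotl2 lay mainly in the luminal range. It had 1 read pair, 0.333 CPM, in 30 pubertal basal-range cells and 40.8 CPM in 131 luminal-range cells, where 26 cells had a read. The 33 pubertal read pairs of Synm and the 1 of Ankrd1 in these ranges were also all in luminal-range cells, but mostly in Acta2-high ones. Most of those Synm reads lay in a cell at 290 CPM with Acta2 at 13260 CPM. The Ankrd1 read lay in a cell with Acta2 at 1360 CPM. In the adult Amotl2 averaged 56.6 CPM in basal-range and 76.0 CPM in luminal-range cells, and 75.5% of the latter came from the cell at 4940 CPM. In titles 48 to 188, which lack that cell, the basal-range mean was 68.9 CPM and the luminal-range mean 28.9 CPM. Ccn1 was found in every range, at 258 and 181 CPM in pubertal and 275 and 175 CPM in adult basal-range and luminal-range cells.

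The 3 muscle-related genes were seldom all found in 1 cell. At equal depth 49 of 152 adult cells had none of Ankrd1, Synm and Fhod3, 53 had 1, 41 had 2 and 9 had all 3. In puberty 150 of 171 cells had none, 20 had 1 and 1 had 2. Among the 89 adult Acta2-high cells, 13 had none and 8 had all 3. Within these cells the presence of one said little of another. Synm was detected in 12 of 33 cells with Ankrd1 (36.4%) and in 21 of 56 without it (37.5%), and Fhod3 in 20 of 33 with Ankrd1 (60.6%) and in 36 of 56 without it (64.3%). Amotl2 was detected in 14 of 33 with Ankrd1 (42.4%) and 14 of 56 without it (25.0%). Pearson correlations of log2 levels among the 6 genes over these 89 cells lay between −0.22 and 0.23, and sparse counts make such weak values no finding.

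**Figure D3:**
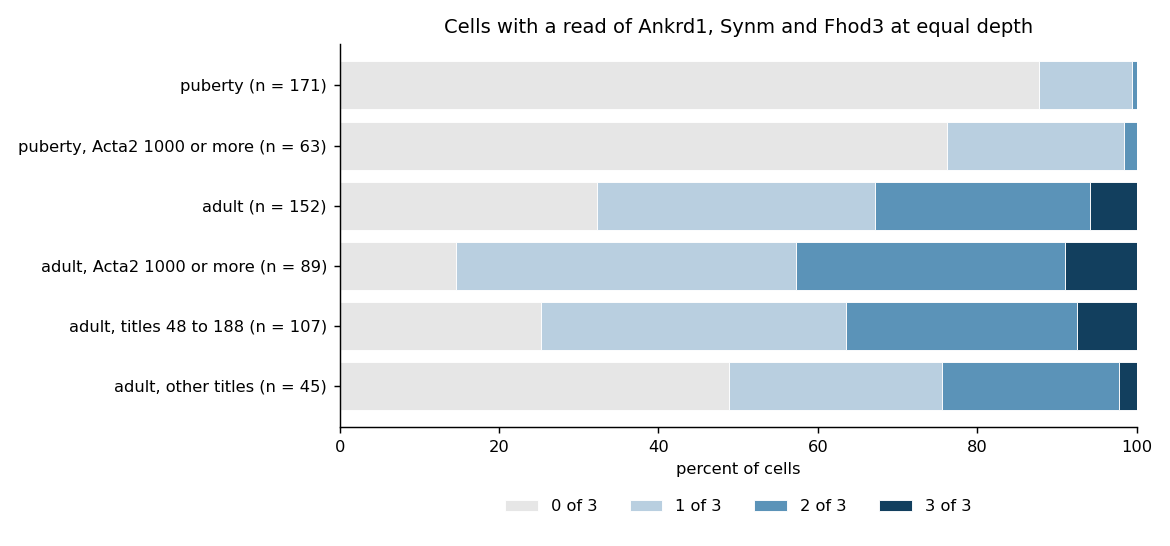
Share of cells (horizontal axis, percent) with a read of 0, 1, 2 or 3 of Ankrd1, Synm and Fhod3 at equal depth, for each stage, for Acta2-high cells and for the adult title sets. In puberty 87.7% of cells have none, against 32.2% in the adult and 14.6% in adult cells with Acta2 at 1000 CPM or more.

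The strongest Ankrd1 cells were not spread evenly over the adult titles. Of the 10 adult cells at 100 CPM or more, 7 had title numbers from 160 to 190, a stretch that holds 28 of the 152 retained adult cells. This stretch was noticed after the values were seen. Of the 10, 4 carried at least 3 of 6 fibroblast markers, against 8 of the 142 other adult cells. The summed level of the 6 markers ran from 0 to 4410 CPM (median 65) in the 10 cells and from 0 to 27030 CPM (median 5) in the others. Without all cells that carried at least 3 fibroblast or 2 pericyte markers, adult Ankrd1 averaged 17.3 CPM over 133 cells and pubertal Ankrd1 was 0 over 147 cells. In the Acta2-high cells without them it averaged 26.8 CPM over 79 cells. The part of these markers in the remaining level was not tested.

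**Figure D4:**
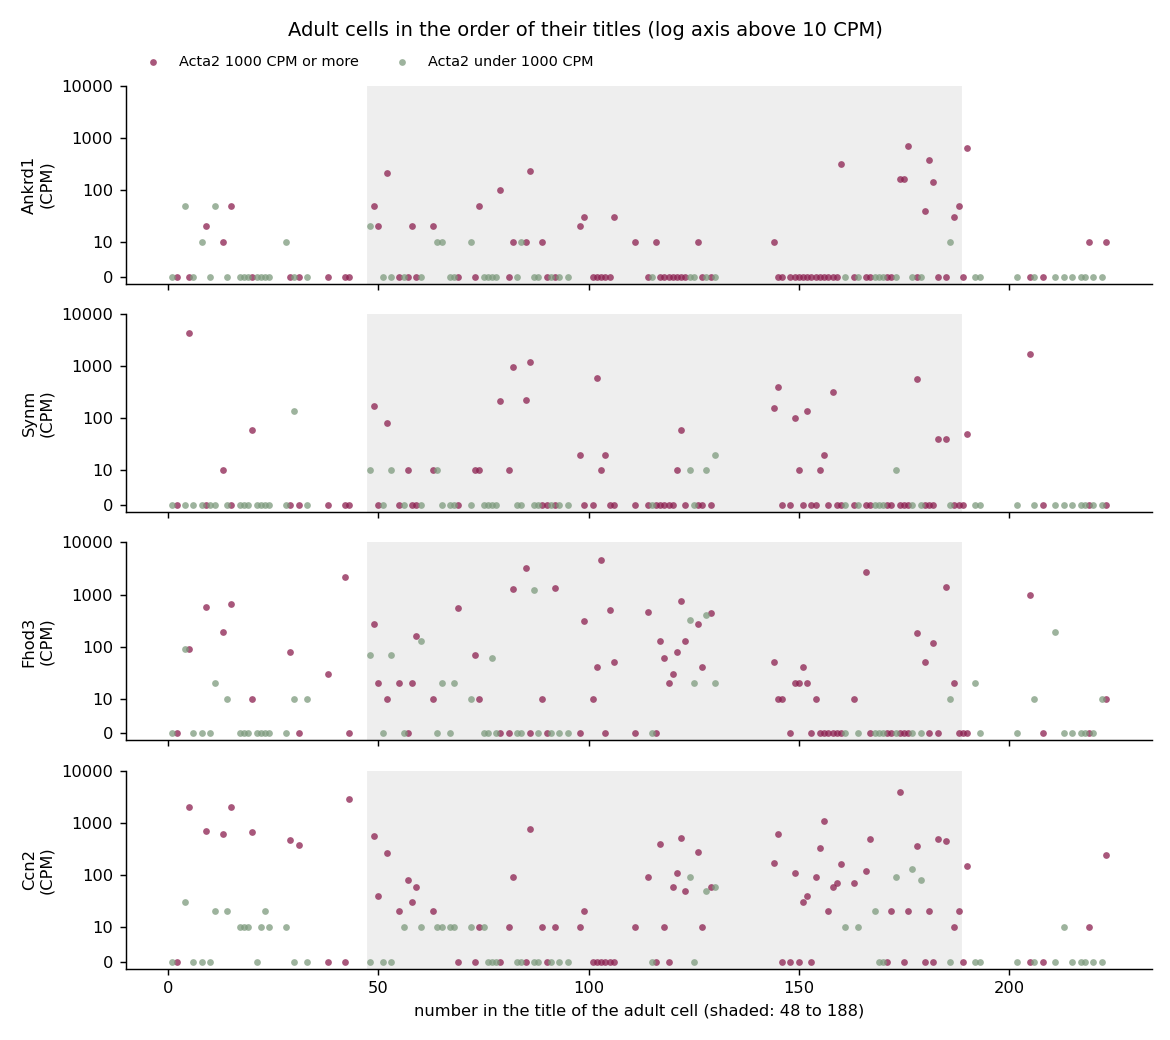
Level of Ankrd1, Synm, Fhod3 and Ccn2 in CPM (vertical axes, logarithmic above 10 CPM) for each adult cell along the number in its title, with titles 48 to 188 shaded and cells coloured by Acta2 above or below 1000 CPM. The 10 Ankrd1 cells at 100 CPM or more all have high Acta2, and 7 of them lie at titles 160 to 190.

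The markers of other cell types were then set beside the genes. Amotl2 resembled Ankrd1, with 5 of 13 adult cells at 100 CPM or more carrying at least 3 fibroblast markers against 7 of 139 others, and without the marker-bearing cells its pubertal and adult means were 22.4 and 34.8 CPM. For Synm the counts were 0 of 15 and 12 of 137, for Fhod3 1 of 29 and 11 of 123, and for Ccn2 2 of 30 and 10 of 122. Without these cells Synm averaged 2.24 and 75.1 CPM and Fhod3 7.21 and 185 CPM in puberty and adult, close to the values with them. Of 7 pericyte and vascular smooth muscle markers, Cspg4 and Kcnj8 were at 0 in the 89 adult Acta2-high cells, Rgs5 had 1 read pair, and the summed level ran from 0 to 2030 CPM with a median of 0. None of these 89 cells carried 3 of the 7. The leukocyte markers were all at 0 there, and 4 of 5 endothelial markers had reads, with a summed level of 0 to 570 CPM. Of 8 skeletal and heart muscle markers, 5 had reads in these cells, with a summed level of 0 to 530 CPM and a median of 0, and Ckm, Tnnt3 and Tnni2 were at 0.

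A list of 14 genes induced by tissue dissociation, such as Fos, Egr1 and heat shock genes, also moved with stage. Its summed level ran from 100 to 27420 CPM in puberty (median 3700) and from 830 to 69060 CPM in the adult (median 7090). At 20 CPM, 4 of the 14 were at least 2-fold higher in the adult, against 14.4% of all genes, and 0 lower, with a median log2 ratio of 0.65. By the naming rule they include Hspa1a (105 against 17.8 CPM) and Hsp90aa1 (1328 against 435 CPM), 2 heat shock proteins, and the others, named after their values were seen, were Fos and Junb. Among Acta2-high cells 8 of 14 were higher, against 18.5% of all genes. In adult cells the median summed level was 7600 CPM where Ankrd1 was at 100 CPM or more and 7040 CPM elsewhere, and 8725 against 6305 CPM for Ccn2. Its part in the stage difference was not tested.

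The wider YAP and TAZ pathway was described by lists, of which the counts stand beside the 14.4% of all genes higher and 19.6% lower in the adult. Of 18 other target genes of YAP, TAZ and TEAD, 15 reached 20 CPM, 3 were at least 2-fold higher in the adult, 2 were lower, and the median log2 ratio was 0.38. The higher ones were Tgfb2 (35.5 against 15.6 CPM), a secreted growth factor, Ptpn14 (65.8 against 31.1 CPM), a phosphatase that binds YAP, and Nt5e, which was named after its value was seen. Ccdc80 (6.84 against 31.8 CPM) and Lats2 (7.17 against 28.3 CPM), a kinase that phosphorylates YAP, were lower. Among Acta2-high cells 2 of 15 at 20 CPM were higher and 4 lower, against 18.5% and 26% of all genes. The median there was 0.13. Both sets of counts lay near the shares over all genes, so nothing is read from them about Ankrd1 or Ccn2.

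Of 19 Hippo pathway and TEAD genes, 13 reached 20 CPM, with 2 higher, 2 lower and a median of 0.14. Wwtr1, which encodes TAZ, averaged 118 CPM in pubertal and 297 CPM in adult cells, and was detected in 46.2% and 77.0% of cells. Vgll3, a TEAD partner, averaged 12.2 and 28.2 CPM, while Lats2 and Vgll4 (30.8 and 9.87 CPM), another TEAD partner, were lower. Yap1 averaged 84.3 and 158 CPM and Tead1 181 and 167 CPM. In Acta2-high cells Wwtr1 averaged 208 and 314 CPM, Yap1 99.5 and 163 CPM, and Tead1 316 and 217 CPM. All 3 were present in more pubertal cells (45.6% to 60.8%) than Ankrd1, Synm, Fhod3 or Ccn2.

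Of 6 genes of the serum response factor pathway, which drives contractile genes, 4 reached 20 CPM and 0 were 2-fold apart. Srf itself averaged 57.8 and 39.0 CPM in pubertal and adult cells, Fhl2, a partner protein, 54.7 and 75.3 CPM, and Myocd, which encodes myocardin, was at 0.468 and 0 CPM. The 17 contractile genes all reached 20 CPM, and 10 were at least 2-fold higher in the adult, 0 lower, with a median of 1.10. In titles 48 to 188, 10 of 17 were higher and 0 lower, with a median of 1.23, against 15.6% of all genes higher. In the other adult titles 4 of the 16 at 20 CPM were higher and 2 lower, with a median of 0.49, against 20.2% higher. Over all adult cells Lmod1 (10.8 against 63.9 CPM), a thin filament protein, and Myh11 (248 against 1229 CPM) led. Vcl, which encodes the adhesion protein vinculin, was at 548 and 466 CPM. Among Acta2-high cells 5 of 17 were higher, against 18.5% of all genes. The median was 0.50, below the log2 ratios there of 5.15 for Ankrd1, 4.25 for Synm and 3.76 for Fhod3.

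The relatives and partners of the 6 genes did not share one pattern. Of 10 intermediate filament and dystrophin complex genes, which are partners of synemin, 5 reached 20 CPM and 1 was lower, Sgce (25.8 against 0.592 CPM), a sarcoglycan, while Vim averaged 296 and 478 CPM. Of 12 other formins, 5 reached 20 CPM, with Fmnl2 higher (28.8 against 66.2 CPM) and Fmnl3 lower (25.0 against 0.855 CPM). Of 6 relatives of Ankrd1 and of the CCN genes, 2 reached 20 CPM and both were higher in the adult, Ankrd23 (1.29 against 39.5 CPM), another muscle ankyrin repeat gene, and Ccn5 (1.58 against 28.6 CPM). In titles 48 to 188, 3 of the 6 relatives reached 20 CPM and all 3 were higher, against 15.6% of all genes. None of the relatives reached 20 CPM in the other adult titles. Ccn5 was at 4.67 CPM in all Acta2-high and 28.7 CPM in all Acta2-low cells, opposite to Ccn2.

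Of 8 receptors for CCN proteins 7 reached 20 CPM and 0 were 2-fold apart, with Itgb1, a shared integrin chain, at 383 and 653 CPM and Itgb5 at 99.1 and 55.7 CPM. Of 9 stretch-activated channel and focal adhesion genes 7 reached 20 CPM and 2 were higher. They were Piezo2, a stretch-gated channel (39.2 against 107 CPM), and Tln1, which encodes talin (65.3 against 176 CPM), while Zyx, for zyxin, was at 148 and 76.2 CPM.

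**Figure D5:**
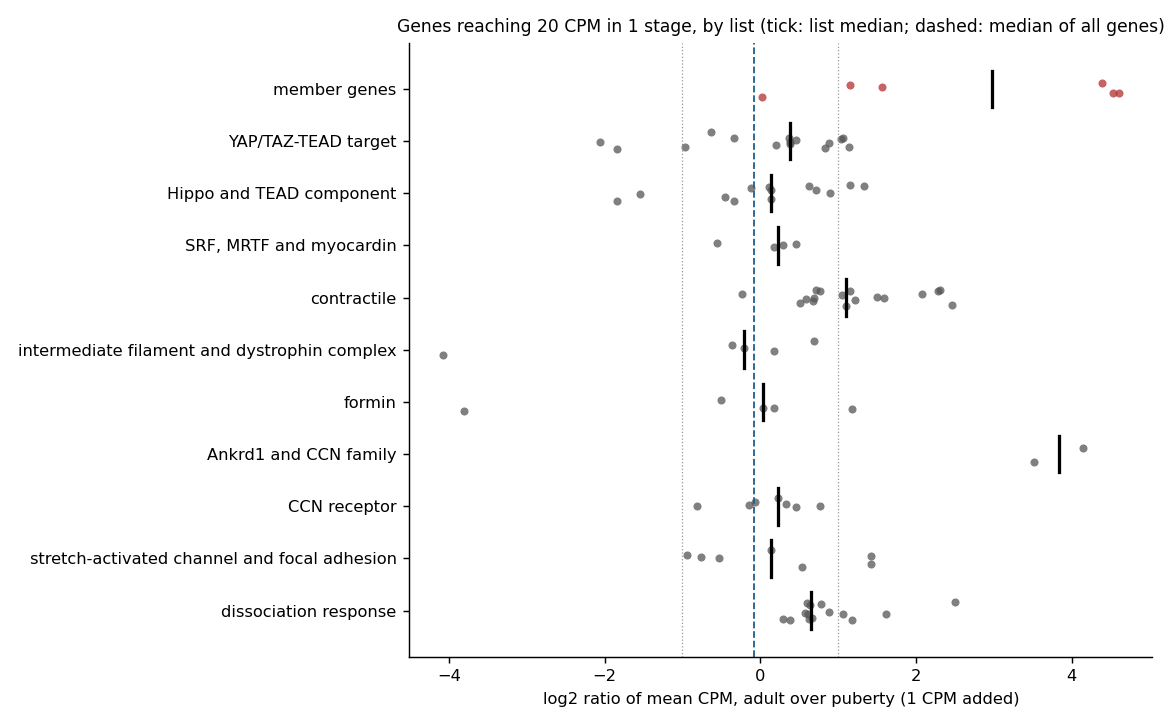
Log2 ratio of mean CPM, adult over puberty with 1 CPM added (horizontal axis), of each gene that reached 20 CPM in either stage, by list, with the list median as a tick, 2-fold as dotted lines and the median of all genes, −0.09, dashed. The 6 genes reach 4.60, while 10 of 17 contractile genes and 3 of 15 YAP and TAZ targets lie past 2-fold on the adult side.

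The genes most like each of the 6 were taken as the 5 with the highest Pearson r of log2(CPM + 1) over the 323 cells, among 4806 genes detected in at least 20% of cells. The points share library preparation, equal depth and the mix of lineages and stages. For Fhod3 they were Mylk (0.49), the myosin light chain kinase, Postn (0.49), Myh11 (0.48), Scn7a (0.48) and Krt14 (0.46). For Ccn2 they were Krt14 (0.50), Myh11 (0.49), Cacna2d1 (0.48), Palld (0.47) and Cxcl14 (0.47). Mylk, Myh11 and Krt14 in these lists are genes of the contractile basal layer, but stage and lineage, by which the 6 genes were chosen, vary over these cells. Over the 152 adult cells Mylk (0.49) was again nearest to Fhod3, but its list lacked Myh11 and Krt14. Ccn2 was nearest there to Col4a1 (0.43), and its list held Acta2 (0.41) but none of Mylk, Myh11 and Krt14. Over the 107 cells of titles 48 to 188 neither list held Mylk, Myh11 or Krt14. Nox4 (0.48) was nearest to Fhod3 there and Ppp2r5e (0.47) to Ccn2. The values for Amotl2 (at most 0.33, Aebp1) and Ccn1 (at most 0.28, Pls3) were weak in sparse counts and are no finding. Ankrd1 and Synm were detected in 13.6% of all cells each and could be ranked over the 152 adult cells alone, a choice made after seeing the data. There Ankrd1 was nearest to Ptprz1 (0.46) and Adgrg2 (0.46) and Synm to 2610507B11Rik (0.42).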

How the data were processed

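Poly-A RNA of single sorted cells was made into cDNA on the Fluidigm C1 system, built into Nextera XT libraries without molecular identifiers and sequenced on a NextSeq 500. Per the labels and methods, the authors aligned read pairs with Subread to mm10 and deposited, for each cell, a table of raw counts per Entrez gene from featureCounts with the built-in RefSeq annotation. Versions are not given in the sources used here. Chambers were viewed for single cells before lysis, and no doublet caller was run here. Of 27179 gene numbers 25275 matched a RefSeq gene, the rest holding 1.84% of read pairs. Removed as well were 15 mitochondrial genes and 119 genes of ribosomal proteins. Cells with at least 100000 read pairs and 1500 genes were thinned to 100000 read pairs (seed 1). CPM of summed counts is given with exact 95% Poisson, shares with exact binomial and ratios with exact conditional intervals, which cover counting error only since reads are not independent molecules. Log2 ratios add 1 CPM to each mean. A gene was called at 2-fold among genes at 20 CPM in either group.

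The files hold one sample per stage in effect, so no test was fitted. Ratio code was tested on simulated data. The 6 genes, the gene lists and the score were chosen with earlier results of these data known. Genes named from a list were the up to 2 highest and 2 lowest by adult over puberty ratio. For each of the 6 detected in at least 20% of cells, the 5 genes of highest Pearson r were named. Motif shares used RefSeq promoter windows of GRCm38.p6. Alternatives were the counts as deposited, 10 CPM added, TMM factors (edgeR 4.0.16 in R 4.3.3), a second seed, 200000 read pairs with 2500 genes, leaving out the highest or marker-bearing cells, and subsets by title, lineage, Acta2 and Myh11. Python 3.11.15, numpy 2.4.6, pandas 2.3.3 and scipy 1.17.1 were used. A deposited table that joins the cells was not used.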

Additional observations from a re-analysis of the deposited data

Results flagged for a closer look

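Cells below the minimums of 100000 read pairs or 1500 genes entered no comparison, and 11 of 12 gene and stage pairs held more than 3 read pairs there, the limit that a count of 0 allows. In the 71 adult cells left out these were 102 read pairs for Ankrd1 (21 cells), 55 for Synm, 1126 for Fhod3, 261 for Ccn1, 1187 for Ccn2 and 83 for Amotl2. In the 50 pubertal cells left out they were 76 for Synm, 18 for Fhod3, 271 for Ccn1, 12 for Ccn2 and 22 for Amotl2, while Ankrd1 had 0. Pooled over those cells, Ankrd1 stood at 41.9 CPM in the adult and 0 in puberty, and Fhod3 at 462 and 7.67 CPM, on totals of 2436302 and 2346650 read pairs. Synm did not follow, with 22.6 CPM in the adult and 32.4 CPM in puberty, where 3 cells had a read.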

How the results depend on the processing

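With 1 sample per stage, cells not tied to an animal, sort or capture run cannot give replicate error. A lineage range is not a cell type. No paired analysis was possible because the labels give cell numbers only and no result comes from a test. The count of genes at least 2-fold higher in the adult, at 20 CPM or not, was 4 or 5 of 6 under every alternative run. Its median log2 ratio (2.97) was 2.75 with counts as deposited, 1.598 with 10 CPM added, 2.80 with 200000 read pairs and 2500 genes, 2.69 without marker-bearing cells, 2.58 with titles 48 to 188, 5.21 in basal-range and 2.51 in luminal-range cells. The basal-range over luminal-range median (2.11) was 2.35 with counts as deposited, 1.496 with 10 CPM added, 1.45 without the highest cells, 2.34 with the second seed, 2.57 without marker-bearing cells, 1.84 with the score cut at 0, 1.66 in adult cells, 1.46 in titles 48 to 188, 1.87 in the other adult titles and 4.71 against luminal-range cells with Acta2 under 100 CPM, added after seeing the data. In pubertal cells that median was 0.20 and the count was 1 rather than 4. The Acta2 median (4.50) was 2.31 with 10 CPM added and 1.24 in pubertal cells. Of 246 single-gene ratios under alternatives 27 changed sign. Of these, 23 were of genes under 2-fold apart with all cells, 15 of Ccn1 and 8 of Amotl2 (2 by lineage, 6 by Acta2). The other 4 were Ankrd1 (−0.11) and Synm (−1.82) by lineage in puberty, Ankrd1 by lineage in the other adult titles (−2.44, 8 against 32 cells) and Amotl2 by stage in Acta2-high cells with those titles (−2.03). For Ankrd1 in the other adult titles the change rests on 1 cell at 650 CPM with all 6 fibroblast markers. The causes of the sign changes were not tested. The Acta2 comparison within basal-range cells was not run, since no such cell had Acta2 under 100 CPM.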

Other observations

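The pubertal cell titled 1 held 92020 CPM of 8 skeletal muscle markers, 7 of them detected. None of Ankrd1, Synm, Fhod3, Ccn1, Ccn2 and Amotl2 had a read in it at equal depth, and its Acta2 was at 10 CPM.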
